A study of Mus musculus with 6 samples.

Results

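The ERK pathway feedback genes are genes whose products damp signalling from RAS through the RAF, MEK and ERK kinases, together with ETS factors whose own transcripts are induced when ERK is active. The 10 members were fixed by name as Spry1, Spry2, Spred1, Spred2, Nf1, Dusp4, Dusp5, Dusp6, Etv4 and Etv5, and each matched 1 of the 35932 Ensembl genes of the count table through the GENCODE M21 annotation. Of these 10, 6 had enough counts to enter the test over 13414 genes. The series measured RNA from mouse bone marrow labelled as myeloid leukemic blasts of the genotype MLL-AF9+, which carry a fusion of Kmt2a, a histone methyltransferase gene also called Mll1, with Mllt3, also called Af9. The 3 resistant libraries carried the treatment label of cytarabine, a nucleoside analog, given together with the anthracycline doxorubicin, and the 3 sensitive libraries that of vehicle. Drug exposure and resistance therefore cannot be told apart in these libraries. Mouse strain, age, dose, harvest time and the origin of the replicates are not stated in the labels. A p-value here therefore sets the difference between groups only against how much libraries within groups vary, and that variation may be technical.

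ERK signalling starts at cell surface receptors, which load RAS with GTP, and passes through RAF and MEK to ERK, which phosphorylates cytoplasmic and nuclear proteins. Active ERK also induces transcripts of its own inhibitors, so that levels of Dusp6, Spry2, Spry4, Etv4 and Etv5 are widely read as a gauge of pathway output. In human myeloid leukemia the pathway is a frequent target of mutation, through RAS genes, receptor kinases or loss of NF1.

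Library totals ranged from 22206341 to 31856009 counts in resistant and from 25129812 to 30695602 counts in sensitive blasts, and 3 counts, taken as the detection floor for counting error, equalled 0.0942 to 0.135 CPM, the count of a gene divided by its library's scaled total. The label of myeloid blasts was checked with 12 markers, all of which had enough counts to be tested; their summed level was 5137 to 6055 CPM in resistant and 5827 to 6388 CPM in sensitive libraries, with 4 genes higher, 4 lower and 4 not passing. Markers of other marrow cells were also present. Of 9 tested mature neutrophil markers 8 were lower in resistant libraries, and the 10 listed summed to 32.9 to 50.6 CPM there, against 204 to 243 CPM in sensitive libraries. Of 10 tested monocyte and macrophage markers 5 were lower and 5 did not pass. Their sums were 427 to 497 CPM in resistant and 868 to 959 CPM in sensitive libraries. Most of each sum came from Ly6c2, at 264 ± 21 CPM in resistant and 681 ± 60 CPM in sensitive libraries. Of 7 tested erythroid markers 6 were lower, with sums of 1.10 to 2.96 CPM in resistant and 46.7 to 81.7 CPM in sensitive libraries. The 8 T and NK cell markers summed to 1.92 to 2.85 CPM in resistant and 3.23 to 4.63 CPM in sensitive libraries, with 1 of 1 tested gene lower, Trac at 0 in the resistant and Cd3g and Ncr1 at 0 in the sensitive group. The 8 B cell markers summed to 38.9 to 41.4 CPM in resistant and 39.1 to 42.4 CPM in sensitive libraries, nearly all from Cd79b, with 0 of 2 tested genes called and Ms4a1 and Pax5 at 0 in the resistant group. The 6 megakaryocyte markers summed to 12.7 to 14.5 CPM in resistant and 13.8 to 15.2 CPM in sensitive libraries, with 1 of 4 tested genes higher and 1 lower. The 8 stromal and endothelial markers summed to 32.8 to 38.2 CPM in resistant and 42.2 to 53.2 CPM in sensitive libraries, most of it from Pdgfrb, which was 1 of 2 tested and lower. The part of these cells in the results below was not tested, and in bulk RNA fewer cells of a type and less RNA per cell cannot be told apart.

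Among the feedback genes, the phosphatase genes Dusp5 and Dusp6 fell in resistant blasts, while Spry2, Spred1, Spred2 and Nf1 did not pass the test. Dusp5 was 2.76-fold lower and Dusp6 4.94-fold lower. Spry1, Dusp4, Etv4 and Etv5 were too low in both groups to be tested. Thus 2 of the 6 tested members were lower and 0 higher with the threshold set at 0.05 (edgeR quasi-likelihood, adjusted by Benjamini-Hochberg over 13414 genes); 1 was higher at an unadjusted p under 0.05, and DESeq2 called 1 higher and limma-voom 0. Of the 6 tested members 33.3% passed, against 39.2% of all tested genes, made up of 20.8% lower and 18.5% higher. The members' share is only a description, since Dusp6 entered the test through its high counts in the sensitive group alone; with a filter of 1 CPM in 3 libraries, which removed Dusp6, 1 of the 5 members left was called lower. The groups did not overlap in 3 of the 6, Dusp5, Dusp6 and Nf1, against 52.4% of all tested genes. The median log2 fold change of the 6 tested members was 0.08, and that of all tested genes was -0.01.

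**Figure D1:**
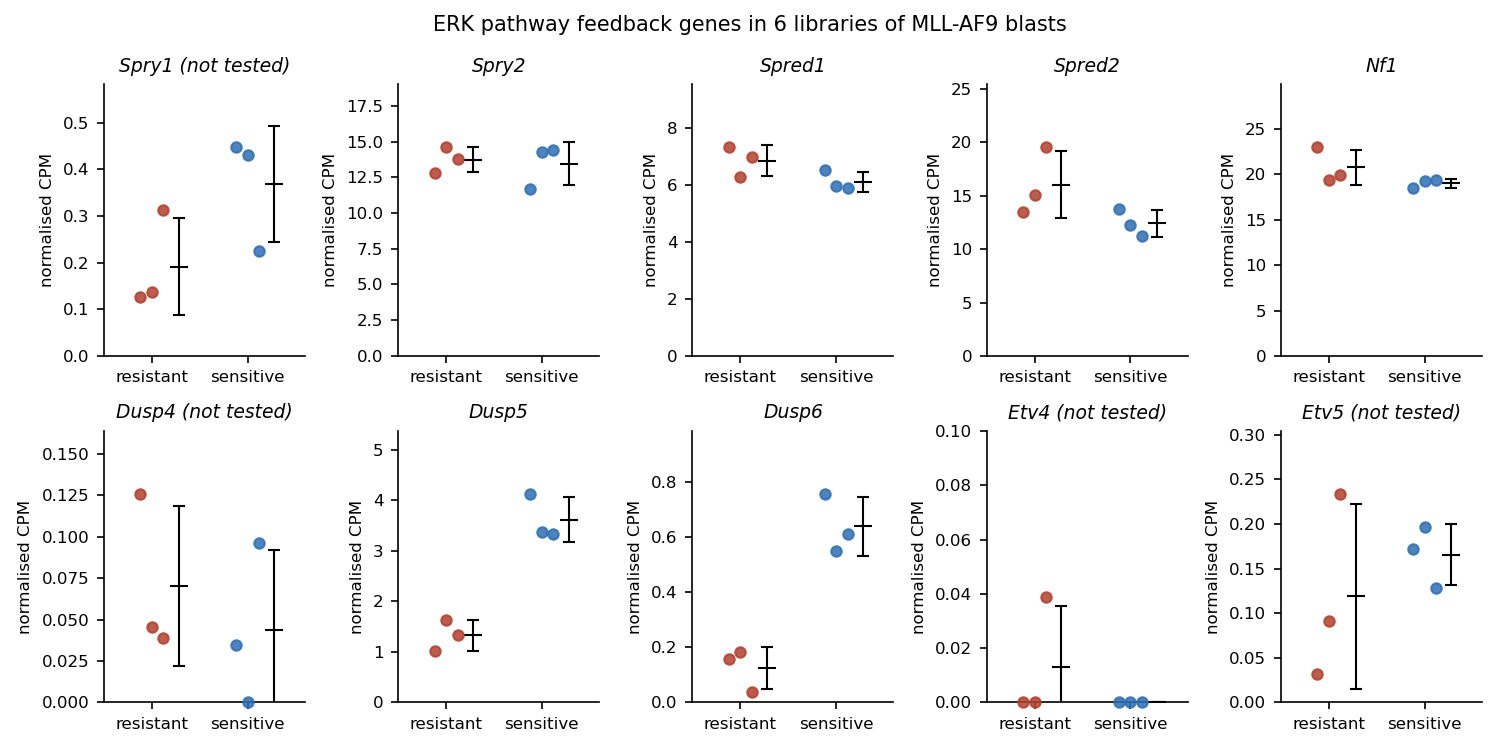
Normalised CPM of the 10 members in each of 3 resistant (red) and 3 sensitive (blue) libraries, each panel on its own linear scale from 0; points are libraries, and the black mark with bars is the mean ± SD. Dusp5 and Dusp6 are lower in every resistant library than in any sensitive one, as are 27.2% of all tested genes. Dusp5 lies at 1.01 to 1.64 CPM in resistant and 3.34 to 4.13 CPM in sensitive libraries. Spry2 overlaps between the groups, at 11.7 to 14.6 CPM over all libraries.

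The dual-specificity phosphatases of this family remove the phosphates from the threonine and tyrosine that activate MAP kinases. DUSP5 acts on ERK in the nucleus, and its transcript is induced by ERK activity. Dusp5 had 1.01, 1.64 and 1.33 CPM in resistant libraries 1 to 3, from 32, 36 and 34 counts, against 4.13, 3.37 and 3.34 CPM in sensitive libraries 1 to 3, from 120, 86 and 104 counts. Every resistant library was below every sensitive one, as was so in 27.2% of all tested genes. The log2 fold change was -1.46 ± 0.22 (SE; 95% interval -1.96 to -0.97; adjusted p = 0.000607, edgeR quasi-likelihood, n = 3 per group). It lay between -1.63 and -1.29 in the 6 fits that each left out 1 library, with adjusted p up to 0.0045.

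DUSP6 is the cytoplasmic, ERK-selective counterpart of DUSP5 and one of the transcripts most used to read ERK output. Dusp6 had 0.158, 0.182 and 0.0390 CPM in resistant libraries, from 5, 4 and 1 counts, against 0.757, 0.549 and 0.609 CPM in sensitive libraries, from 22, 14 and 19 counts. All 3 sensitive libraries were above all 3 resistant ones, as was so in 27.2% of all tested genes. The resistant values were near the 3-count floor. The log2 fold change was -2.30 ± 0.47 (SE; 95% interval -3.34 to -1.27; adjusted p = 0.00322, edgeR quasi-likelihood). The summed counts were 10 in resistant and 55 in sensitive libraries, a ratio of 0.197 with a 95% exact interval of 0.0893 to 0.389 for counting error alone. Dusp6 entered the test only through the sensitive group, where it was high, and a filter of 1 CPM in 3 libraries removed it.

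Dusp4 encodes a nuclear phosphatase that acts on ERK, JNK and p38 in the cell types where it was studied. It had 4, 1 and 1 counts in resistant libraries and 1, 0 and 3 counts in sensitive libraries, and was not tested. The ratio of summed counts was 1.62, with an exact interval of 0.384 to 7.81 that spans a difference in either direction.

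The windows before the transcription start of the 2 genes that fell are shown because they differ in a motif for serum response factor, the CArG box, in which 6 bases of A or T lie between a pair of C and a pair of G. Each is a stretch of 200 bases ending 50 bases before the RefSeq start on build GRCm38.p6, plus strand, printed from 5′ to 3′ with CArG boxes in capitals; Dusp5 is at chr19:53528895-53529094 and Dusp6 at chr10:99262981-99263180.
Dusp5: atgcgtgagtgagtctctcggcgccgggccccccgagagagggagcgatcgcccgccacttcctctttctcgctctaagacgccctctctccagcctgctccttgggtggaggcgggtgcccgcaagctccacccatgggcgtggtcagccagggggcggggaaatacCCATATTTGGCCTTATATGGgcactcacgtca
Dusp6: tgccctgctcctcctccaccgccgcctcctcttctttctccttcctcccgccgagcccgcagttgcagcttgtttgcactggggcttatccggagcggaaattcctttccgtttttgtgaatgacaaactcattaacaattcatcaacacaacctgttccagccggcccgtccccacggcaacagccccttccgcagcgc
The Dusp5 window held 2 CArG boxes side by side, CCATATTTGG starting 82 bases and CCTTATATGG starting 72 bases before the RefSeq start. At least 1 CArG box occurred in 1.63% of 32851 RefSeq promoter windows of the same genome (250 bases before to 50 after a start), and 2 or more occurred in 6 windows, or 0.0183%. None of the other windows of members, 9 in all for 8 of the 10 genes, held one.

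A search on both strands of the same windows was made for 4 further motifs of factors at the end of the ERK pathway. The ETS motif CCGGAAGT occurred in the window of Nf1 and in 3.89% of all windows. The PEA3 motif AGGAAGT, which shares its last 6 letters with it, occurred in the windows of Dusp5, Spred2 and Etv5 and in 9.35% of all windows. The cyclic AMP response element TGACGTCA and the AP-1 motif TGANTCA were in no window of a member, against 1.79% and 7.81% of all windows. A match describes letters in a window and does not show that a factor binds there.

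The other members act before or at RAS. Sprouty proteins interfere with the signal between receptor and RAS, and SPRED proteins bring neurofibromin, the product of Nf1, to the membrane, where it returns RAS to its GDP-bound state. Spry2 had 12.8, 14.6 and 13.8 CPM in resistant and 11.7, 14.2 and 14.4 CPM in sensitive libraries. The values overlapped, and the log2 fold change of 0.03 ± 0.11 (SE; 95% interval -0.21 to 0.27; adjusted p = 0.858, edgeR quasi-likelihood) allowed a small change in either direction.

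Spred2 was the member nearest to a rise. It had 13.5, 15.1 and 19.5 CPM in resistant libraries 1 to 3, from 427, 332 and 501 counts, and 13.8, 12.2 and 11.3 CPM in sensitive libraries 1 to 3, from 400, 312 and 351 counts. Resistant library 1 was below sensitive library 1, so the groups overlapped, and resistant library 3 was the highest of all. The log2 fold change was 0.37 ± 0.14 (SE; 95% interval 0.06 to 0.68; unadjusted p = 0.0249, adjusted p = 0.0602, edgeR quasi-likelihood). It passed without resistant library 1 (0.48, adjusted p = 0.0248), with DESeq2 (adjusted p = 0.0395) and with no low-count filter (adjusted p = 0.0245), and without resistant library 3 it was 0.21 with adjusted p = 0.196.

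Spred1, the paralog of Spred2, had 7.34, 6.28 and 6.98 CPM in resistant and 6.54, 5.96 and 5.90 CPM in sensitive libraries. The log2 fold change was 0.17 ± 0.12 (SE; 95% interval -0.11 to 0.44; adjusted p = 0.314, edgeR quasi-likelihood). Nf1 had 23.0, 19.4 and 20.0 CPM in resistant and 18.5, 19.3 and 19.3 CPM in sensitive libraries. Its groups did not overlap, with every resistant library higher, as in 25.2% of all tested genes, but the change was 0.13 ± 0.09 (SE; 95% interval -0.07 to 0.33; adjusted p = 0.286, edgeR quasi-likelihood). Several genes lie within introns of Nf1 on the opposite strand, among them Evi2 and Evi2a, and none of them shares an exon with it in the GENCODE M21 annotation.

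**Figure D2:**
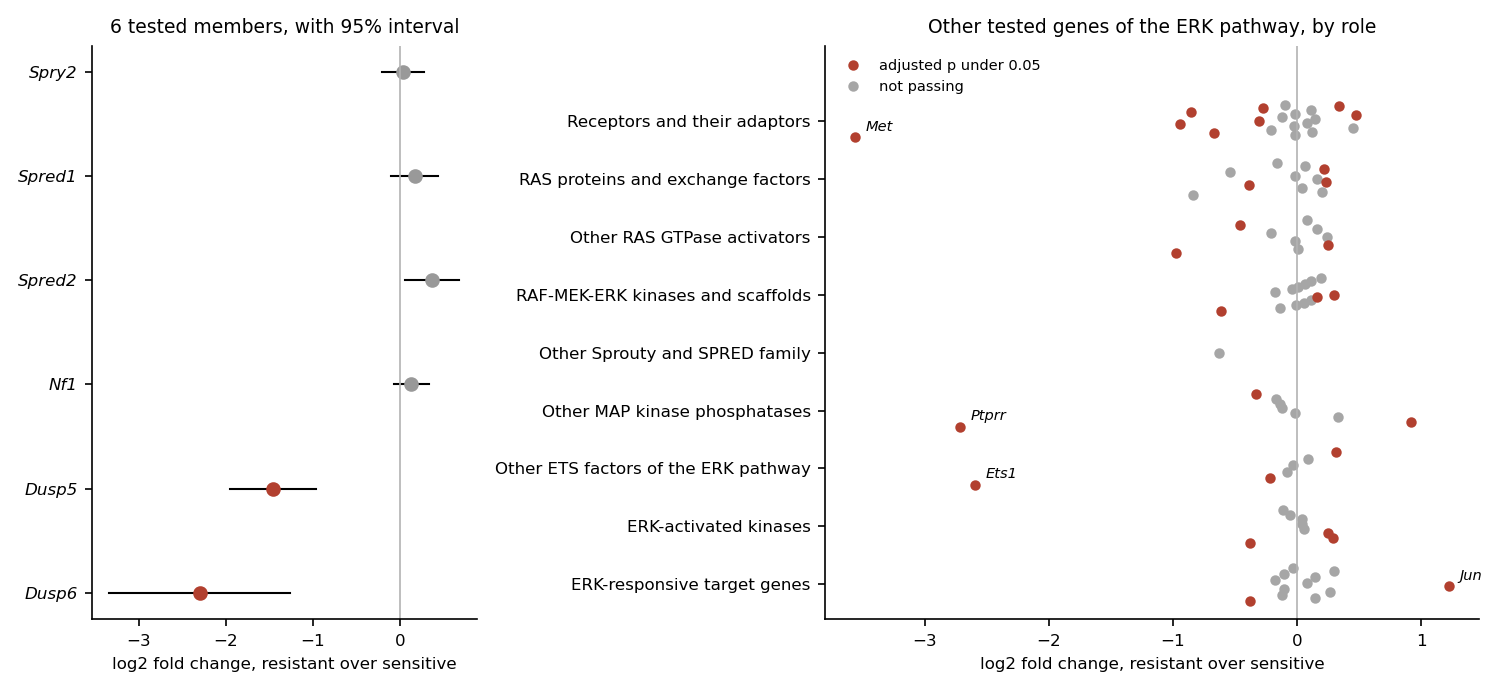
Log2 fold changes, resistant over sensitive, of the 6 tested members with 95% intervals (left) and of 87 other tested ERK pathway genes by role (right); red points passed the edgeR test and grey points did not. Dusp5 at -1.46 and Dusp6 at -2.30 lie apart from the other 4 members, and Met, Ptprr, Ets1 and Jun are the other pathway genes furthest from 0.

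Spry1 was scarce in both groups, with 4, 3 and 8 counts in resistant and 13, 11 and 7 counts in sensitive libraries. The ratio of summed counts, 15 to 31, was 0.523 with a 95% exact interval of 0.262 to 0.998 for counting error alone. The groups overlapped, and in a fit with no low-count filter the adjusted p was 0.279 (edgeR quasi-likelihood). Among their relatives outside the members, Spry3 and Spry4 had 0 counts in all 6 libraries, and Spred3 had a log2 fold change of -0.62 that did not pass (adjusted p = 0.197, edgeR).

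The PEA3 factors ETV4 and ETV5 bind ETS motifs, and their transcripts rise with ERK activity in many tissues. They were near or below the detection floor in these blasts. Etv4 had 1 count in resistant library 3 and 0 in the other 5 libraries. Etv5 had 1, 2 and 6 counts in resistant and 5, 5 and 4 counts in sensitive libraries, a ratio of 0.695 with an exact interval of 0.265 to 1.72. Etv1, the remaining gene of the PEA3 group, had 0 counts in all 6 libraries. At this depth no difference in Etv4 or Etv5 was detectable.

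Levels of different genes were compared as CPM per kb of exon. In resistant blasts the order was Spry2 (6.58 ± 0.43), Spred2 (3.47 ± 0.68), Nf1 (1.31 ± 0.12), Spred1 (1.01 ± 0.08) and Dusp5 (0.536 ± 0.127 CPM per kb; SD, n = 3), and no neighbours among these 5 overlapped. Below them Spry1, Dusp6 and Etv5 overlapped each other in turn, at 0.0659 CPM per kb or less. In sensitive blasts Spry2 (6.44 ± 0.73) and Spred2 (2.69 ± 0.27) again came first, then Dusp5 (1.46 ± 0.18), Nf1 (1.20 ± 0.03), Spred1 (0.904 ± 0.052) and Dusp6 (0.204 ± 0.034 CPM per kb), and no neighbours among these 6 overlapped. Dusp5 thus stood below Nf1 and Spred1 in resistant blasts and above both in sensitive blasts.

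Both genes that fell belong to the MAP kinase phosphatase family of 10 genes, which also holds the nuclear, inducible Dusp1, Dusp2 and Dusp4, the ERK-selective cytoplasmic Dusp7 and Dusp9, and Dusp8, Dusp10 and Dusp16, whose products act mainly on JNK and p38. The 10 genes summed to 21.4, 23.7 and 22.4 CPM per kb in resistant libraries, against 25.5, 23.5 and 25.2 CPM per kb in sensitive libraries. The sums overlapped, since resistant library 2 was above sensitive library 2. Dusp5 and Dusp6 together made up 2.15%, 3.04% and 2.45% of the sum in resistant libraries and 7.51%, 6.56% and 6.13% in sensitive libraries. These 2 genes were picked because they fell in the same libraries, so their lower share follows from that choice. Most of the share was Dusp5, with mean levels of 0.536 of 0.576 CPM per kb in resistant and 1.46 of 1.66 in sensitive blasts. Dusp2, Dusp7 and Dusp9 made up most of the family in all 6 libraries.

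The other phosphatases moved in both directions. Dusp1, an immediate-early gene whose product acts on p38 and JNK as well as ERK, had 5.74, 7.78 and 5.34 CPM in resistant and 3.44, 3.10 and 3.40 CPM in sensitive libraries. Its rise of 0.92 ± 0.17 log2 units passed the edgeR test (adjusted p = 0.00205). Every resistant library was above every sensitive one, as in 25.2% of all tested genes. Dusp2 fell by 0.33 ± 0.09 on the log2 scale (17.8 ± 1.3 CPM in resistant and 22.3 ± 0.7 CPM in sensitive blasts). Dusp7 (-0.12 ± 0.08) and Dusp9 (0.33 ± 0.13), the other ERK-selective cytoplasmic genes, did not pass (edgeR adjusted p = 0.257 and 0.0691). Ptprr, a tyrosine phosphatase gene outside the dual-specificity family whose product binds ERK, had 0.725, 0.910 and 1.01 CPM in resistant and 5.13, 6.47 and 5.71 CPM in sensitive libraries, a 6.55-fold fall (edgeR adjusted p = 4.62e-06). Of the 8 tested phosphatases outside the members, 1 was higher, 2 lower and 5 did not pass.

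**Figure D3:**
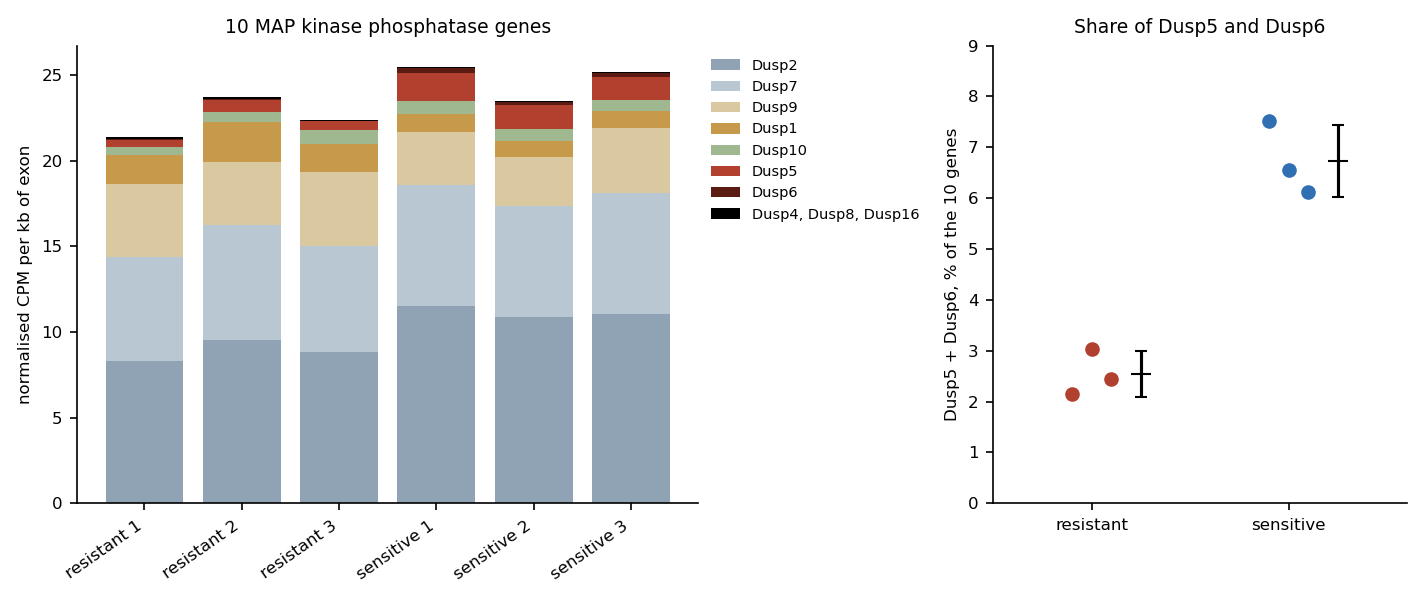
Left, stacked normalised CPM per kb of exon of the 10 MAP kinase phosphatase genes in each library, with resistant libraries first; right, the share of that sum from Dusp5 and Dusp6, with libraries as points and the mean ± SD beside them. The share is 2.15% to 3.04% in resistant and 6.13% to 7.51% in sensitive libraries. Dusp5 and Dusp6 were picked because they fell in these libraries, so the lower share follows from that choice.

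Around the feedback genes, the core of the pathway changed little. In all, 101 other genes of the ERK pathway were listed by role, of which 87 were tested; 12 were higher, 16 lower and 59 did not pass, or 32.2% called against 39.2% of all tested genes. Their median log2 fold change was -0.02. The count of higher genes was 3 without sensitive library 2 and 6 without sensitive library 3, while the count of lower genes stayed between 14 and 17 when any 1 library was left out.

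Among 13 tested RAF, MEK and ERK kinases and their scaffolds, 2 were higher, 1 lower and 10 did not pass. The kinase genes Araf, Braf, Map2k1, Map2k2 and Mapk3 did not pass, with log2 fold changes between -0.01 and 0.11. The log2 fold change of the scaffold gene Iqgap1, which rose, was 0.30 ± 0.05 (edgeR adjusted p = 0.00136), and Ksr1, the scaffold that holds RAF, MEK and ERK together, fell by 0.61 ± 0.13 (edgeR adjusted p = 0.00475; 13.4 ± 2.8 CPM in resistant and 20.5 ± 0.9 CPM in sensitive blasts).

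Upstream, all 19 receptors and adaptors were tested, and 2 were higher, 6 lower and 11 did not pass. Met, the hepatocyte growth factor receptor gene, had 0.441, 0.364 and 0.429 CPM in resistant and 5.85, 5.45 and 3.56 CPM in sensitive libraries, an 11.8-fold fall (edgeR adjusted p = 5.51e-06). The hematopoietic receptor genes Csf1r and Flt3 fell 1.92-fold and 1.81-fold, with Flt3 at 56.1 ± 10.1 CPM in resistant and 102 ± 14 CPM in sensitive blasts. Csf2rb, the shared beta chain of the GM-CSF, IL-3 and IL-5 receptors, fell by 0.27 ± 0.05 on the log2 scale. Csf1r is also one of the monocyte markers that were lower in the resistant libraries.

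At the level of RAS itself, 11 RAS proteins and exchange factors were tested, with 2 higher, 1 lower and 8 not passing. Nras and Hras did not pass (log2 fold changes of 0.16 and 0.04). The RAP1 gene Rap1a and Rapgef1, an exchange factor for RAP1, rose by 0.21 ± 0.05 and 0.23 ± 0.06, and Rasgrp2, another exchange factor acting on RAP1, fell by 0.39 ± 0.07 (edgeR adjusted p = 0.00157). Without sensitive library 2 the calls of Rap1a and Rapgef1 were lost (edgeR adjusted p = 0.0502 and 0.0833). Beside Nf1, 9 other genes that activate the GTPase of RAS or regulate RAS were tested, and 1 was higher, 2 lower and 6 did not pass. Rasa3 fell by 0.46 ± 0.07 and Rasa4 by 0.97 ± 0.14 on the log2 scale, with Rasa4 at 5.33 ± 0.58 CPM in resistant and 10.4 ± 1.3 CPM in sensitive blasts. Rasa1 rose by 0.25 ± 0.08, a call lost without resistant library 1 or sensitive library 2 or 3 (edgeR adjusted p = 0.086 to 0.11).

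Downstream of ERK, 8 ERK-activated kinases were tested, with 2 higher, 1 lower and 5 not passing. Rps6ka5, which encodes the chromatin kinase MSK1, fell by 0.38 ± 0.09 on the log2 scale. Rps6ka3 (RSK2) and Rps6ka4 (MSK2) rose by 0.29 ± 0.09 and 0.25 ± 0.07. Rps6ka3 lost its call without resistant library 1 or 3 or sensitive library 2 or 3, and Rps6ka4 without resistant library 2 or 3 or sensitive library 1 or 2 (edgeR adjusted p up to 0.0862 and 0.113). Of 6 tested ETS factors outside the members, Elk4 was higher, Ets1 and Ets2 were lower and 3 did not pass. Ets1, whose product is phosphorylated and activated by ERK, had 9.52, 12.8 and 6.12 CPM in resistant and 56.9, 60.2 and 53.9 CPM in sensitive libraries, a 6.05-fold fall (edgeR adjusted p = 3.78e-06). Ets2 fell by 0.22 ± 0.07, and its call was lost without resistant library 1 or 2 or any 1 of the 3 sensitive libraries (edgeR adjusted p up to 0.103), and with no low-count filter (0.0562). Elk4, a partner of serum response factor, rose by 0.31 ± 0.10 on the log2 scale, and its call was lost without resistant library 1 or 3 or sensitive library 1 or 3 (edgeR adjusted p up to 0.0972).

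Of 18 listed ERK-responsive target genes 12 were tested, and 1 was higher, 1 lower and 10 did not pass. Myc (-0.10 ± 0.11), Ccnd1 (0.30 ± 0.22) and Fos (0.26 ± 0.22) were among those not passing. Plaur, the urokinase receptor gene, fell by 0.38 ± 0.09 on the log2 scale. Jun, an AP-1 subunit gene, had 4.51, 11.6 and 3.78 CPM in resistant and 3.20, 2.90 and 2.28 CPM in sensitive libraries, with resistant library 2 far above the rest. Its log2 fold change of 1.23 ± 0.37 (edgeR adjusted p = 0.0232) was 0.58 without that library, and the call was then lost, as it was without any 1 of the sensitive libraries and with limma-voom (adjusted p up to 0.0802). Egr1, an early transcript of ERK signalling, had 10, 8 and 4 counts in resistant and 7, 2 and 6 counts in sensitive libraries and was not tested.

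The genes nearest to the members that fell were found by the root mean square difference of log2 CPM over the 6 libraries, each gene centred on its own mean, among 11749 named genes. For Dusp5 they were Nxpe4 (0.0891 log2 units; 1.03 ± 0.26 CPM in resistant and 2.76 ± 0.23 CPM in sensitive blasts) and Lhfpl2 (0.106 log2 units; 1.68 ± 0.32 CPM in resistant and 5.14 ± 0.42 CPM in sensitive blasts). For Dusp6 they were Clec2d (0.146 log2 units; 5.52 ± 1.98 CPM in resistant and 21.0 ± 1.1 CPM in sensitive blasts) and Zc3h12d (0.212 log2 units). Zc3h12d had 0.0980 ± 0.0855 CPM in resistant blasts, near the 3-count floor, and 0.444 ± 0.0665 CPM in sensitive blasts. With 2 groups of 3 libraries the root mean square distance mostly reflects a similar difference between the groups.

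**Figure D4:**
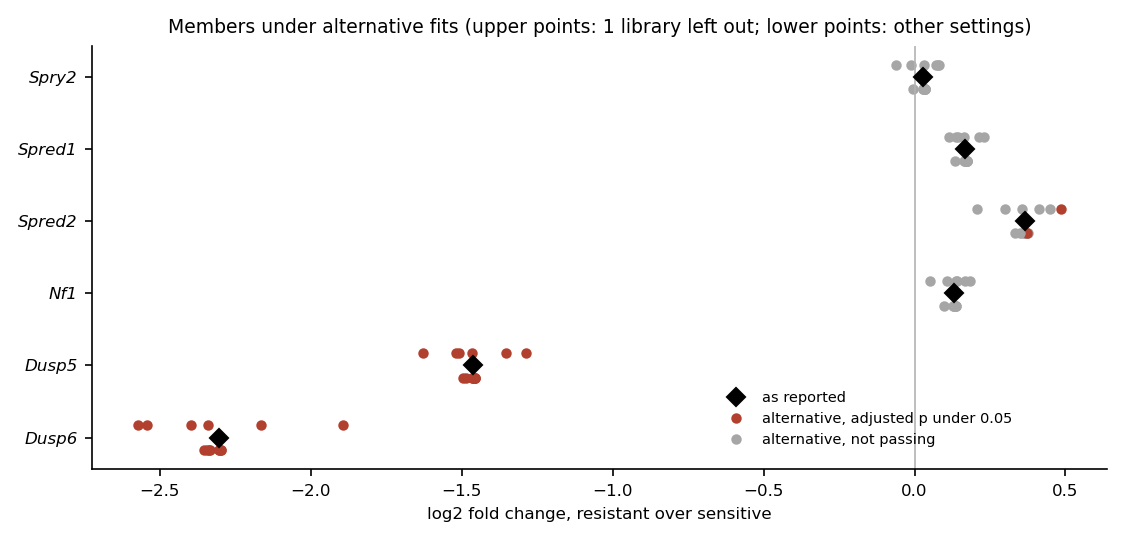
Log2 fold changes, resistant over sensitive, of the 6 tested members as reported (diamonds) and under alternative fits (points, red where the adjusted p was under 0.05), with fits that left out 1 library in the upper row of each gene. Dusp5 stays between -1.63 and -1.29. Dusp6 stays between -2.57 and -1.89 in the 14 alternatives that kept it, and the filter of 1 CPM in 3 libraries removed it. Spred2, at 0.21 to 0.48, is the member whose call changed among the fits that tested it.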

How the data were processed

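RNA of 6 libraries was made into TruSeq libraries and sequenced on a HiSeq2500, per the labels and the design text. The authors deposited raw counts per Ensembl gene; the submitters' processing notes name TopHat2, RSEM and mm9, without version or role. The sources used here do not give the strand setting, annotation or treatment of shared reads, so reads of the exons shared by Spry1 or Dusp5 with an antisense model cannot be told apart. All 6 columns matched a sample by title.

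Symbols and exon lengths came from GENCODE M21 (GRCm38); 31655 IDs matched. Counts were filtered with filterByExpr, TMM-scaled (factors 0.978 to 1.02) and tested in edgeR 4.0.16 (R 4.3.3) with group alone, quasi-likelihood F test and Benjamini-Hochberg adjustment over 13414 genes at 0.05. Values are TMM-normalised CPM. Standard errors were taken as the log2 fold change over the root of F. Promoter windows are from RefSeq (GRCm38.p6). No library repeated another: chi-square per degree of freedom was 3.96 to 13.9 within groups and 38.7 to 64.1 between.

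In 5 simulations of this comparison with 13414 genes, the test recovered 69.8% of genes set to differ 1.5-fold, 84.9% at 2-fold and 98.5% at 4-fold, with 4.99% false calls. Only a small part of the genes, drawn from all levels of expression, was set to differ, whereas 39.2% were called in the data. The rates therefore may not hold for this comparison or for members with few counts. Named genes were the members, up to 4 called genes per pathway list with the smallest adjusted p, and the 2 nearest in pattern to each called member; other genes named were chosen after their values were seen. Some genes the rule names are not reported here. Members and lists were chosen with earlier results of these data known. Alternatives were RLE, upper quartile and library-total scaling, 2 other filters, DESeq2 1.42.0, limma-voom 3.58.1, a replicate block, globin genes left out, and each library left out.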

Additional observations from a re-analysis of the deposited data

How the results depend on the processing

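Over 15 alternatives Dusp5 passed in all (adjusted p up to 0.0045), and Dusp6 in all 14 that kept it (up to 0.0165). With the filter of 1 CPM in 3 libraries, which drops Dusp6, 1 member was lower. The number of members higher was 1 with no low-count filter and with DESeq2 (Spred2 in each), and 0 to 1 over the fits that left out 1 library; lower members stayed at 2 in those. Spry2 turned to -0.0055 (adjusted p = 0.972) when scaled to library totals, and ranged from -0.063 to 0.081 with 1 library left out; the cause was not tested. With 1 library left out, higher genes ranged from 1641 to 2521 (2475 with all), and higher ERK pathway genes from 3 to 13. No pairing by replicate number was visible: deviations of same-numbered libraries from their group means correlated at 0.037, -0.006 and -0.086. With 3 libraries per group these values cannot show whether same-numbered libraries shared an origin. With the replicate number as a block, 5321 genes passed against 5260, and 2 members were lower (adjusted p = 0.00219 for Dusp5 and 0.00627 for Dusp6) and 0 higher. Depth limits Spry1, Dusp4, Etv4 and Etv5.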
